A study of Caenorhabditis elegans with 8 samples.

Results

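The 41 genes described here encode the machinery that builds and maintains cilia in Caenorhabditis elegans. They were chosen by gene name from the genes listed, so their listing is not a result. All 41 stand in both the embryo table and the L1 table, among 16606 genes listed in either. By role they comprise 14 genes of the intraflagellar transport complex IFT-B, 4 of IFT-A, 6 motor subunits, 6 of the BBSome, 5 of the transition zone and 6 with other roles. RNA was sequenced from mixed-stage embryos and from first-stage larvae (L1), all grown at 20 °C, of 2 strains, the wild type N2 and FAS43. FAS43 carries his-69&his-70(uge44), his-72(tm2066), his-74(uge18) and his-71(ok2289), which together mutate its genes for histone H3.3, the replication-independent form of H3. Each of the 4 groups (N2 embryo, FAS43 embryo, N2 L1 and FAS43 L1) held 2 libraries. FAS43 was 1 strain, so the alleles and anything else that differs between the strains cannot be told apart.

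In C. elegans cilia are found on the dendrite endings of sensory neurons, where they carry receptors for smell, taste, temperature and touch. Intraflagellar transport moves cargo along the axoneme: kinesin-2 motors carry IFT trains towards the tip and cytoplasmic dynein-2 carries them back, with IFT-B, IFT-A and the BBSome as the adaptor complexes. The transition zone at the base of the cilium acts as a gate, and the RFX transcription factor DAF-19 switches on many of the genes for these parts. Whole embryos and larvae were sampled, so a lower level of a gene cannot be told apart between fewer ciliated neurons and less RNA per neuron.

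The libraries held 17408914 to 30127179 counts. The H3.3 genes followed the genotype labels: his-71 had 2412 to 4595 counts in the N2 libraries and 2 to 6 in the FAS43 libraries, and his-72 had 10881 to 59440 against 29 to 162. Counts of single ciliary genes ran from 25 to 4529 per library, so all 41 were measured in every library and all passed the low-count filter. No label ties the libraries of one group to separate cultures. The p-values of genotype comparisons measure the spread among the libraries of a single stage. Those of comparisons that involve both stages measure the spread among all 8 libraries. Part or all of that spread may be technical. Ribosomal RNA made up 0.748% to 4.16% of the counts and was higher in replicate 2 of every group. The embryo and L1 libraries were deposited as separate tables, and stage and table cannot be told apart. Normalised read counts (CPM) are given on a scale of TMM effective library sizes, a scaling which assumes that most genes do not differ. Comparisons between genotypes use the sizes found within a stage, and comparisons between stages use those found over all 8 libraries; the scales differed by 2.87% to 12.5% per library.

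The replicates of each embryo group stood apart in the ciliary genes. In N2 embryos replicate 2 was the higher one for 41 of 41 ciliary genes, with a median log2 ratio of replicate 1 over replicate 2 of −1.01, whereas the median of all genes was −0.07. In FAS43 embryos the order was the opposite: replicate 1 was higher for 40 of 41, with a median of 0.76 against 0.00059 over all genes. The exception was daf-19 (−0.18). Under the other scalings of the libraries the count was 39 to 41, where 47.8% to 67.4% of all genes were higher in replicate 1. The largest differences within the embryo pairs were those of che-11 in N2 embryos, at −1.89, and of mksr-1 in FAS43 embryos, at 1.41.

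Genes of other tissues moved along with the ciliary genes between embryo replicates. In N2 embryos 15 of 16 pan-neuronal genes were also higher in replicate 2 (median −1.42), as were 9 of 10 body muscle genes (−1.82) and 9 of 10 intestinal genes (−1.78), while 14 of 14 early zygotic genes were higher in replicate 1 (1.67). In FAS43 embryos 14 of 16 pan-neuronal genes (0.74) and 10 of 10 muscle genes (1.18) were higher in replicate 1, and 19 of 19 maternal genes were higher in replicate 2 (−1.71). The early zygotic genes in N2 and the maternal genes in FAS43 went opposite to the ciliary, neuronal and muscle genes. The other 2 pairings did not: 13 of 19 maternal genes in N2 embryos were higher in replicate 2 (−0.08). In FAS43 embryos 7 of 14 early zygotic genes were higher in replicate 1 and 7 in replicate 2 (0.02). The part of these lists in the results below was not tested. In L1 the ciliary genes were less one-sided: replicate 1 was higher for 26 of 41 in N2 (median 0.32) and for 37 of 41 in FAS43 (0.44). Under the other scalings of the libraries these counts were 26 or 27 in N2 and 32 to 40 in FAS43. Of all genes, 49.4% to 55.5% in N2 and 48.5% to 62.8% in FAS43 were then higher in replicate 1. In FAS43 L1 the pan-neuronal genes went the other way, with replicate 2 higher for 15 of 16 (−0.63). So did 9 of 10 body muscle genes (−0.59) and 10 of 10 intestinal genes (−1.475). On the side of the ciliary genes were 19 of 20 maternal genes (1.30), 11 of 11 early zygotic genes (1.31) and 13 of 14 cuticle collagen genes (0.98). The sides of the muscle and maternal genes were thus the reverse of those in FAS43 embryos.

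**Figure D1:**
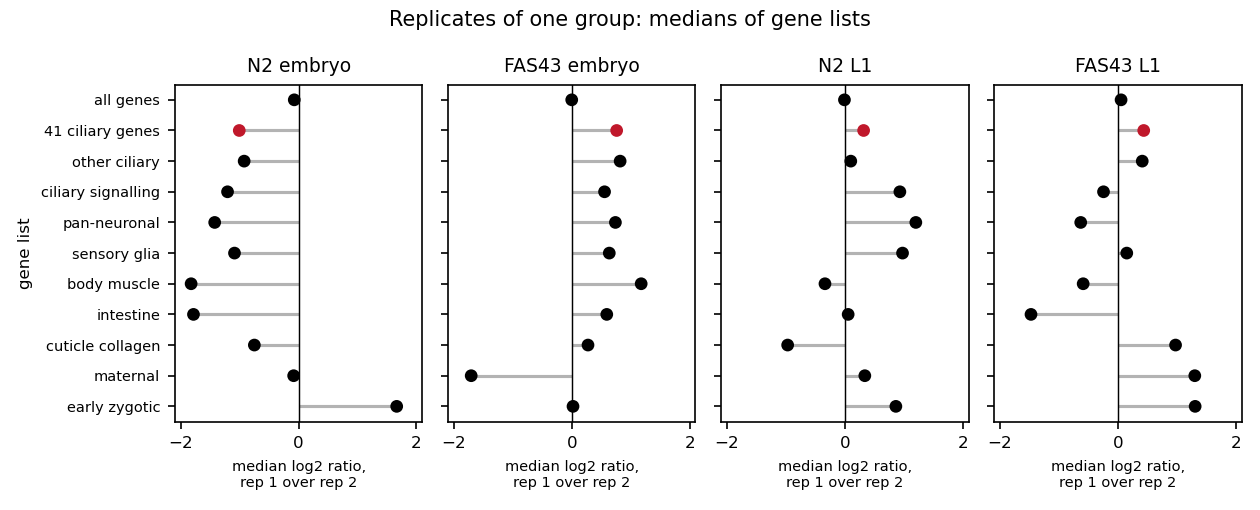
Median log2 ratio of replicate 1 over replicate 2 (x axis, CPM + 0.5) for gene lists (y axis) in the 4 groups, with the 41 ciliary genes in red. The ciliary genes sit at −1.01 in N2 embryos and 0.76 in FAS43 embryos, on the same side as pan-neuronal and muscle genes.

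The median ciliary gene had 6.70 CPM in N2 embryos, 6.07 in FAS43 embryos, 15 in N2 L1 and 11.4 in FAS43 L1. Per kilobase of exon, the highest mean level over the 4 groups was that of klp-11 (36.7 CPM per kb), a motor subunit of the heterotrimeric kinesin-II. It was followed by daf-19 (22.4 CPM per kb), dyf-7 (15.4), che-10 (13.4) and klp-20 (13.1), the partner motor subunit of klp-11. The lowest levels per kilobase were those of daf-10, an IFT-A subunit (2.21 CPM per kb), and xbx-1, a dynein-2 light intermediate chain (2.09). The value of klp-11 is uncertain, because 97.1% of its exonic bases are also annotated on the same strand to F20C5.11, and how the counting treated such reads is not given. All other ciliary genes shared at most 14.7% of their exonic bases with another gene.

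Between mixed-stage embryos and L1, 3 of 41 ciliary genes rose in N2 (osm-3, bbs-8 and dyf-6) and 1 fell (dyf-7), by edgeR's quasi-likelihood test at an adjusted p under 0.05. Of all 13335 genes tested in that comparison, 22.6% were called higher and 16.2% lower, 38.8% in all, so the counts of called ciliary genes stood below the background. Most of their fitted changes were positive: 37 of 41 were above 0, against 50.0% of all genes, and the median log2 fold change was 1.12 where that of all genes was 0.0014. DESeq2 called 5 higher, adding dyf-2 and osm-12, and the same 1 lower, where its background was 25.3% and 21.3%. In 21 of 41 genes both N2 L1 libraries lay above both N2 embryo libraries, as in 37.3% of all genes, and in 2 (kap-1 and dyf-7) they lay below, as in 35.6%. In FAS43, 2 genes rose (osm-3 and che-10) and none fell, against 15.8% and 9.66% of all genes and 25.5% in all. The median log2 fold change there was 0.57, against −0.03 over all genes, and 33 of 41 were positive, against 49.2% of all genes. DESeq2 called 5 higher in FAS43 (osm-3, bbs-8, dyf-6, osm-12 and che-10), and none lower, where it called 20.3% of all genes higher and 15.8% lower.

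**Figure D2:**
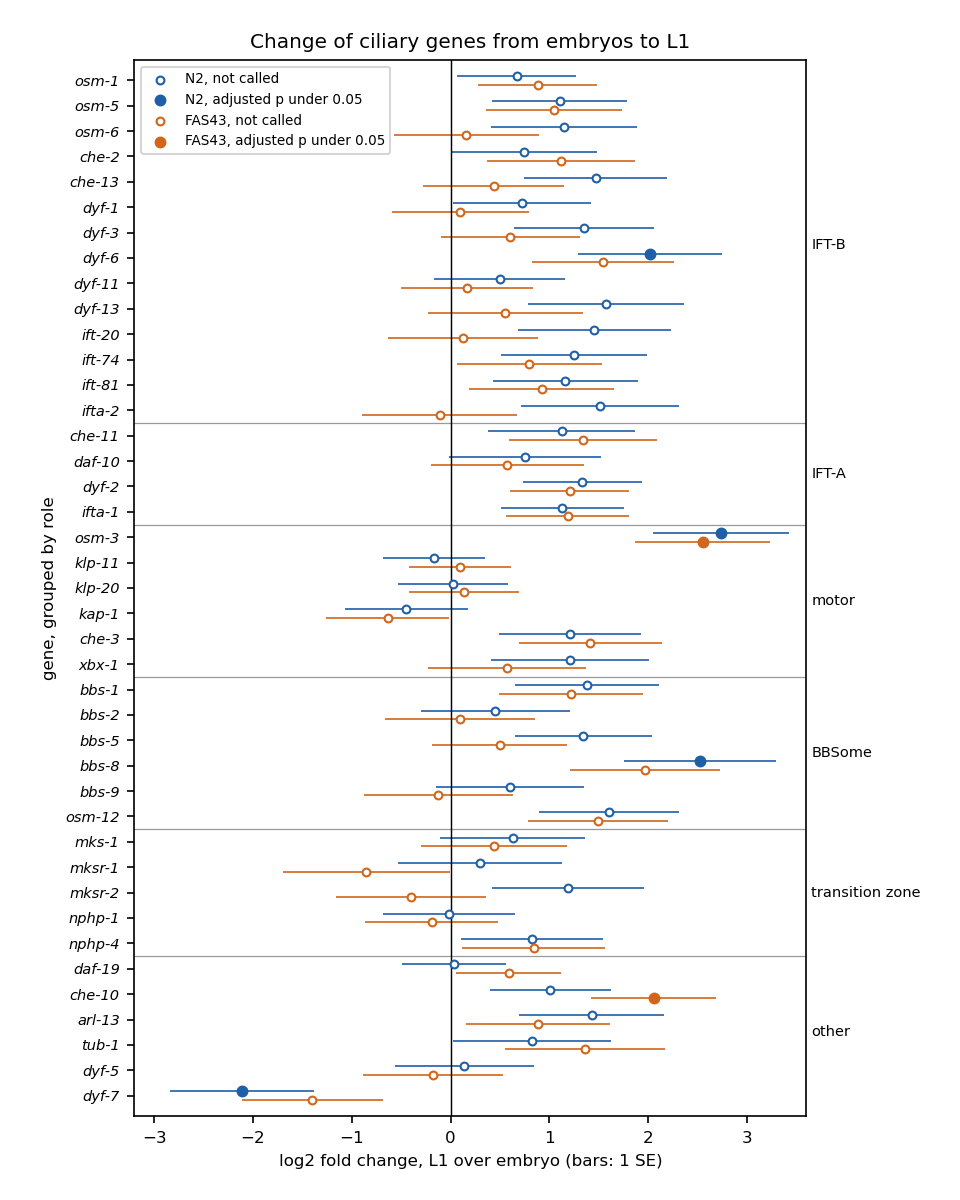
Log2 fold change of L1 over embryo (x axis; bars are 1 SE) for each of the 41 ciliary genes (y axis, by role) in N2 and FAS43; filled points have an adjusted p under 0.05. In both genotypes osm-3 lies farthest to the right, at 2.73 and 2.55, and dyf-7 farthest to the left, at −2.11 and −1.40.

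Of the motors, osm-3 changed most. It encodes the homodimeric kinesin-2 that builds the distal part of the cilium, and lies on chromosome IV at 3796300 to 3801052 (minus strand, WBcel235). Its level was 3.33 and 5.69 CPM in N2 embryos, 4.69 and 2.85 in FAS43 embryos, 25.8 and 34.2 in N2 L1, and 20.5 and 23.6 in FAS43 L1. All 4 L1 libraries were above all 4 embryo libraries. The fitted rise was 6.65-fold in N2 (log2 2.73, SE 0.69, adjusted p = 0.00540 by edgeR) and 5.86-fold in FAS43 (log2 2.55, SE 0.69, adjusted p = 0.0143). Without N2 embryo replicate 1 the rise in N2 was 2.40 with an adjusted p of 0.0628. The rise in FAS43 was 2.23 without FAS43 embryo replicate 2 (adjusted p = 0.122) and 2.45 without FAS43 L1 replicate 2 (adjusted p = 0.0846).

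The subunits of kinesin-II, the other anterograde motor, had fitted changes near or below 0. klp-11 was at 76.1 and 115.4 CPM in N2 embryos and 94.9 and 75.9 in N2 L1, with a log2 fold change of −0.16 (SE 0.52) in N2 and 0.09 (SE 0.52) in FAS43. klp-20 was at 27.3 and 32.1 CPM in N2 embryos and 29.3 and 30.97 in N2 L1, with changes of 0.02 and 0.14 (SE 0.56 in both). For kap-1, the accessory subunit that binds both motor chains, the changes were −0.45 and −0.63 (SE 0.62 in both). The N2 and FAS43 libraries of klp-11 and klp-20 overlapped between the stages, and none of these changes passed the test.

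The ratio of osm-3 to each kinesin-II subunit within a library is given as a description, chosen after the values had been seen. The ratio of osm-3 to klp-20 ran from 0.117 to 0.177 in the 4 embryo libraries and from 0.570 to 1.11 in the 4 L1 libraries. For klp-11 it ran from 0.0438 to 0.0493 in embryos and from 0.211 to 0.451 in L1, and for kap-1 from 0.153 to 0.201 and from 1.05 to 2.47. Geometric means were taken over the 4 embryo and the 4 L1 libraries, with both genotypes pooled. The L1 mean was 6.08-fold the embryo mean against klp-20, 6.45-fold against klp-11 and 9.53-fold against kap-1. These ratios share the level of osm-3, and that to klp-11 rests on an uncertain count. Because they were chosen after the values had been seen, no p-value is given for them. In the retrograde motor, che-3, the dynein-2 heavy chain, had log2 changes of 1.21 in N2 (SE 0.72) and 1.42 in FAS43 (SE 0.73), and xbx-1 had 1.21 and 0.57 (SE 0.80 in both). Neither passed the test. When 1 library was left out, che-3 in N2 ran from −0.046 to 2.17 and xbx-1 in FAS43 from −0.05 to 1.64.

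All 14 IFT-B genes had positive fitted changes in N2 (median log2 1.21), and 1 of them was called. This was dyf-6 (X, 10379693 to 10386508, minus strand), which encodes an IFT-B core subunit. It had 2.90 and 6.72 CPM in N2 embryos, 7.92 and 3.28 in FAS43 embryos, 20.9 and 18.2 in N2 L1, and 17.1 and 15.5 in FAS43 L1. Every L1 library was above every embryo library. The fitted change was 4.06-fold in N2 (log2 2.02, SE 0.73, adjusted p = 0.0359) and 2.91-fold in FAS43 (log2 1.54, SE 0.72, adjusted p = 0.118). The call in N2 was lost when N2 embryo replicate 1, N2 L1 replicate 1 or N2 L1 replicate 2 was left out, with adjusted p of 0.221, 0.127 and 0.103. It was also lost with library totals as the only scaling (adjusted p = 0.0594) and with the replicate number as a block (0.0603). In FAS43 13 of 14 IFT-B genes were positive (median 0.58) and none was called, against 1 by DESeq2. The exception was ifta-2, a small GTPase of the complex, at −0.11 (SE 0.78) in FAS43 and 1.51 (SE 0.80) in N2. The 4 IFT-A genes were positive in both genotypes, with medians of 1.13 and 1.19. The smallest p among them was that of dyf-2 in both (log2 1.33, SE 0.60, adjusted p = 0.0848 in N2, and log2 1.21, SE 0.60, adjusted p = 0.141 in FAS43).

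The BBSome genes, whose products ferry membrane proteins on and off the IFT trains, had a median log2 change of 1.36 in N2 and 0.86 in FAS43. Of these 6, bbs-8 was called in N2 (V, 6762467 to 6765072, minus strand). Its level was 1.56 and 5.01 CPM in N2 embryos, 4.69 and 2.34 in FAS43 embryos, 20.9 and 16.9 in N2 L1, and 13.1 and 14.3 in FAS43 L1. The stages did not overlap in either genotype. The rise in N2 was 5.74-fold (log2 2.52, SE 0.77, adjusted p = 0.0160), and the value in FAS43 was 3.91-fold (log2 1.97, SE 0.76, adjusted p = 0.0619). Without N2 embryo replicate 1, N2 L1 replicate 1 or N2 L1 replicate 2 the adjusted p in N2 was 0.141, 0.0783 and 0.0581. At the other end was bbs-2, with the largest p of all ciliary genes in FAS43: 8.03 and 3.07 CPM in embryos and 6.91 and 4.90 in L1 (log2 0.09, SE 0.76). Its L1 libraries lay between its embryo libraries.

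No transition zone gene passed the test from embryos to L1. Their median log2 change was 0.63 in N2 and −0.19 in FAS43, and 0 of 5 were called in either by edgeR or DESeq2, with 0 at an unadjusted p under 0.05. nphp-1, which encodes nephrocystin at the ciliary gate, had the largest p of all 41 genes in N2. It had 11.1 and 21.8 CPM in N2 embryos and 16.5 and 16.1 in N2 L1, a log2 change of −0.02 (SE 0.67). Its L1 libraries lay between its embryo libraries. The genes of the B9 domain proteins mksr-1 and mksr-2 were positive in N2 (0.30, SE 0.83, and 1.19, SE 0.77) and negative in FAS43 (−0.85, SE 0.84, and −0.40, SE 0.76). The difference between genotypes was tested as the interaction given below and was not called for either.

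Among the genes with other roles, dyf-7 was the one that fell. It encodes a zona pellucida domain protein of the extracellular matrix that anchors dendrite tips while the neurons form in the embryo, and lies on X at 9698659 to 9701732 (plus strand). Its level was 42.0 and 63.3 CPM in N2 embryos, 47.6 and 30.2 in FAS43 embryos, 14.96 and 9.39 in N2 L1, and 25.2 and 4.24 in FAS43 L1. All 4 L1 libraries were below all 4 embryo libraries, as for 25.6% of all genes. It fell by 2.11 on the log2 scale in N2 (SE 0.73, adjusted p = 0.0301), and its change in FAS43 was −1.40 (SE 0.72, adjusted p = 0.152). The FAS43 value depended on 1 library: it was −3.25 with an adjusted p of 0.00789 when FAS43 L1 replicate 1 was left out, and −0.63 with an adjusted p of 0.701 when replicate 2 of that group was. The call in N2 was lost without any 1 of the 4 N2 libraries, with adjusted p of 0.0625 to 0.191, and with library totals (0.0519).

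che-10, which encodes the rootletin of the ciliary rootlet, rose in FAS43. It lies on II at 4627811 to 4638341 (minus strand). Its level was 53.8 and 22.3 CPM in FAS43 embryos and 121.9 and 194.1 in FAS43 L1, a rise of 4.15-fold (log2 2.05, SE 0.63, adjusted p = 0.0257). In N2 it was 32.4 and 76.9 CPM in embryos and 151.2 and 68.9 in L1, where the groups overlapped and the log2 change was 1.01 (SE 0.61, adjusted p = 0.196). Without FAS43 embryo replicate 2 or FAS43 L1 replicate 2 the change in FAS43 was 1.55 and 1.68, with adjusted p of 0.221 and 0.177. With library totals it was 1.89 with an adjusted p of 0.0617. daf-19 (II, 10157520 to 10169346, minus strand) had 47.2 and 89 CPM in N2 embryos, 60.4 and 54.8 in FAS43 embryos, 87.8 and 51.5 in N2 L1, and 87.2 and 86.0 in FAS43 L1. The N2 groups overlapped and both FAS43 L1 libraries lay above both FAS43 embryo libraries. Its change was 0.03 in N2 (SE 0.53), a value whose sign turned with the scaling of the libraries, and 0.59 in FAS43 (SE 0.53, adjusted p = 0.423).

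**Figure D3:**
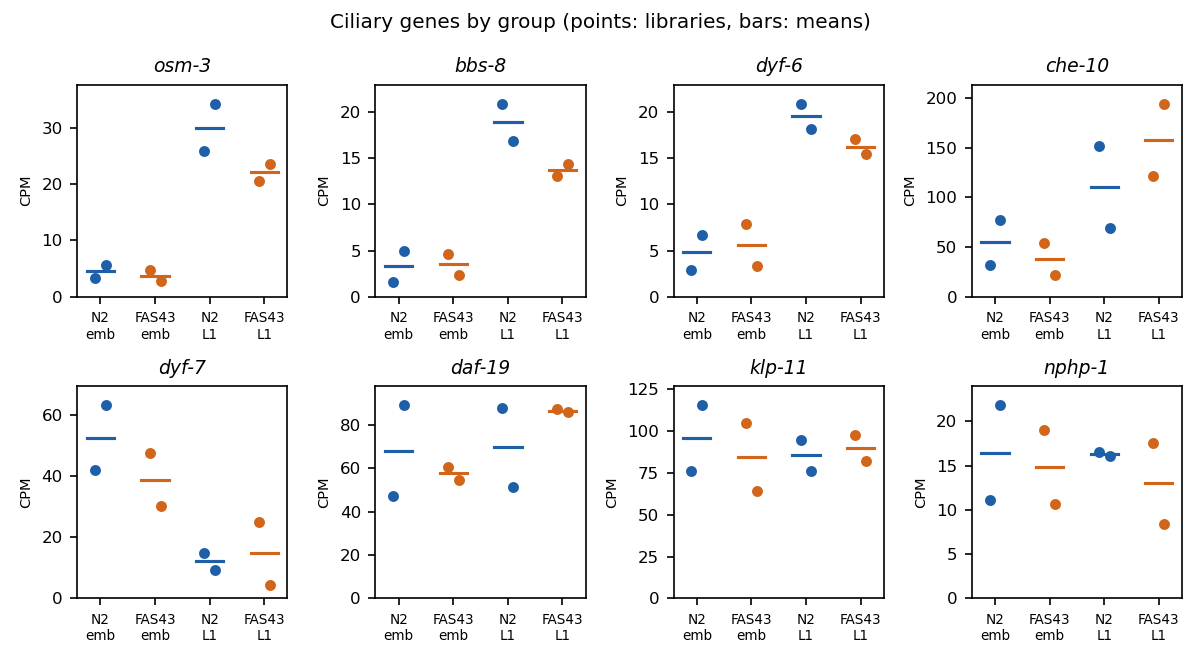
CPM (y axis, scale of all 8 libraries) of 8 ciliary genes in the 4 groups (x axis); points are libraries and bars are group means. osm-3, bbs-8 and dyf-6 are higher in every L1 library, dyf-7 is lower in every L1 library, and klp-11 and nphp-1 overlap between stages.

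The N2 and FAS43 stage changes share no library. They were positive in both genotypes for 32 of 41 ciliary genes, negative in both for 3 and of opposite sign for 6. Of all 13335 genes 43.8% were positive in both, 44.6% negative in both and 11.7% of opposite sign. The rank correlation of the changes was 0.571 over the 41 genes and 0.921 over all genes (Spearman's rho), and all points come from the same 8 libraries and from 1 fit. In 11 genes all 4 L1 libraries were above all 4 embryo libraries (dyf-3, dyf-6, ift-74, ift-81, dyf-2, ifta-1, osm-3, bbs-1, bbs-5, bbs-8 and osm-12), a share of 26.8% beside 28.5% of all genes.

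**Figure D4:**
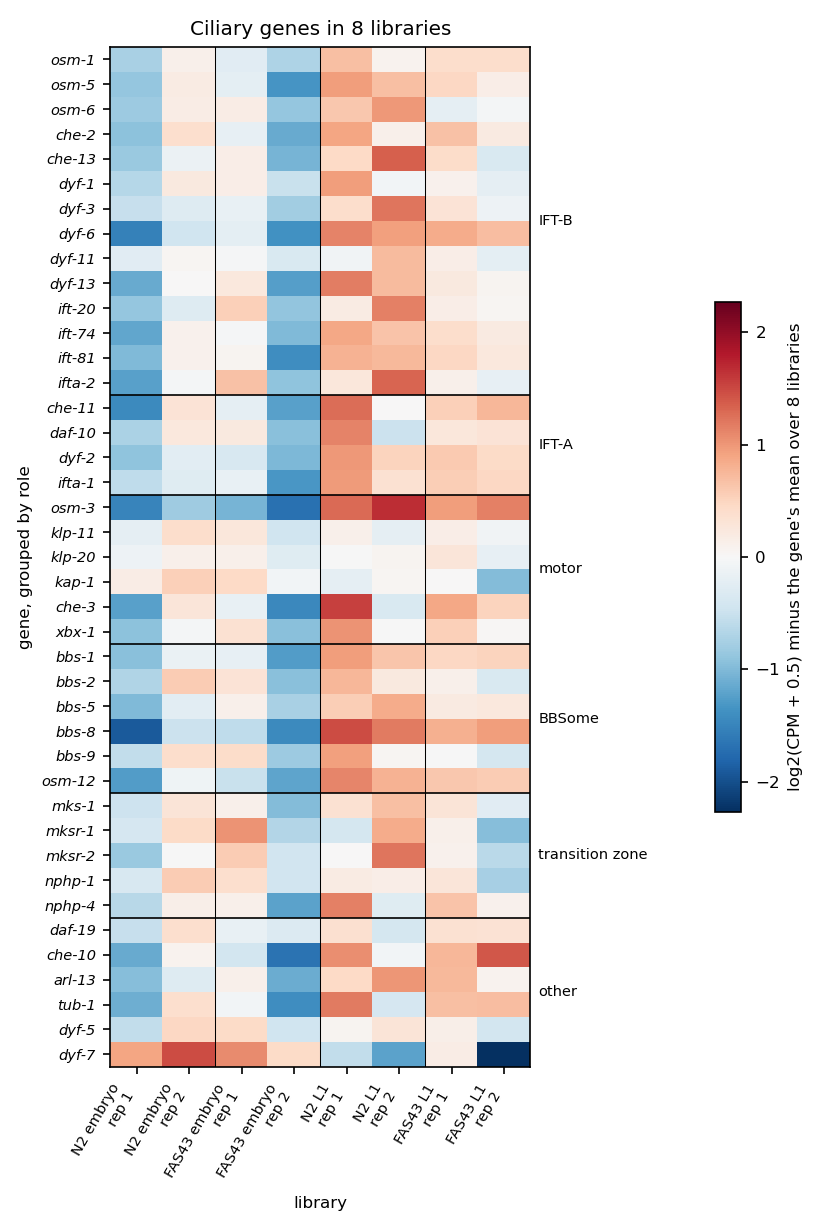
Level of each of the 41 ciliary genes (y axis, by role) in the 8 libraries (x axis), as log2(CPM + 0.5) minus the gene's mean over the libraries; red is higher. The lowest library is N2 embryo replicate 1 or FAS43 embryo replicate 2 for most genes, the highest is a library of N2 L1 for most, and dyf-7 is higher in embryos.

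Other genes of ciliated and neuronal cells gave context for these changes. Of 39 further genes chosen for ciliary structure, 37 were listed at both stages. Of these 37, 6 rose and 2 fell from embryos to L1 in N2 (median log2 0.80). In FAS43 2 rose and 2 fell (median 0.09). The shares of all genes called higher and lower were, as above, 22.6% and 16.2% in N2 and 15.8% and 9.66% in FAS43. The smallest p in both was that of nekl-4, a NIMA-related kinase gene of ciliated neurons. It had 0.181 and 0.604 CPM in N2 embryos, 0.862 and 0.365 in FAS43 embryos, 7.61 and 3.49 in N2 L1, and 3.599 and 7.27 in FAS43 L1, with no overlap between stages. Its log2 change was 3.81 in N2 (SE 0.90, adjusted p = 0.00379) and 3.16 in FAS43 (SE 0.88, adjusted p = 0.0165).

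Genes that signal in the cilium were higher in L1 by a larger median than the structural genes. Of 20 such genes chosen, 16 were listed at both stages, and the others could not be compared. Of these 16, 7 rose in N2 and 5 in FAS43, with medians of 2.09 and 1.86, and none fell. The TRPV channel gene ocr-2 had 0.217 and 1.07 CPM in N2 embryos and 10.3 and 6.91 in N2 L1 (log2 3.73, SE 0.89, adjusted p = 0.00405). Its channel partner osm-9 had 1.89 and 0.839 CPM in FAS43 embryos and 10.3 and 24.6 in FAS43 L1 (log2 3.68, SE 0.87, adjusted p = 0.00774). Of 16 pan-neuronal genes 10 rose in N2 and 9 in FAS43, with medians of 2.14 and 2.13. The same shares of all genes, 22.6% in N2 and 15.8% in FAS43 for a rise, stand beside these counts. The medians describe lists of unequal make-up, and the difference between the lists was not tested.

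Between FAS43 and N2 embryos, 0 of 41 ciliary genes were called by edgeR or DESeq2, and 0 had an unadjusted p under 0.05. The background was low as well, with 0.0220% of 13617 genes called by either tool. The median log2 fold change of FAS43 over N2 was −0.31 for the ciliary genes and −0.08 for all genes, with 34 of 41 below 0, against 59.9% of all genes. With library totals, with the CPM filter or in the fit of all 8 libraries the median was −0.12, with 28 or 29 of 41 below 0 and 36% to 45.5% of all genes below 0. Single values ran from −0.74 to 0.42 with SE of 0.64 to 0.90, and every adjusted p was 0.9999. The direction rested on single libraries. Without N2 embryo replicate 2 all 41 values were positive (median 0.61), and without FAS43 embryo replicate 1 none was (−0.67). Without N2 embryo replicate 1 the median was −0.76 with 1 positive, and without FAS43 embryo replicate 2 it was 0.12 with 26 positive. Each of the 41 values took both signs over these settings.

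The gene with the smallest p in each role shows the pattern. che-2 of IFT-B had 4.02 and 11.7 CPM in N2 embryos and 6.04 and 3.59 in FAS43 embryos (log2 −0.70, SE 0.81). che-11 of IFT-A had 4.69 and 18.7 against 9.995 and 5.83 CPM (log2 −0.57, SE 0.77), and che-3 had 10.4 and 32.9 against 18.8 and 9.26 CPM (log2 −0.63, SE 0.73). In each of them N2 replicate 2 was highest and the groups overlapped. bbs-2 had 3.91 and 10.95 against 7.03 and 3.35 CPM (log2 −0.52, SE 0.81), and mks-1, which encodes a B9 domain protein of the transition zone, had 2.91 and 5.76 against 3.91 and 2.00 CPM (log2 −0.55, SE 0.86). The value with the largest size was that of che-10, with 33.3 and 86.4 against 47.1 and 24.4 CPM (log2 −0.74, SE 0.66). tub-1, the gene of a Tubby protein that sorts ciliary membrane proteins, had 3.28 and 11.03 against 6.22 and 2.72 CPM (log2 −0.68, SE 0.82). All of these overlapped between genotypes as well.

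daf-19 had 48.6 and 100.1 CPM in N2 embryos and 52.8 and 59.9 in FAS43 embryos, a log2 change of −0.40 (SE 0.64). The FAS43 libraries lay between the N2 libraries. For 1 of 41 genes, dyf-7, named after its values were seen, both FAS43 embryo libraries were below both N2 libraries. It had 43.2 and 71.2 CPM in N2 and 41.7 and 33.1 in FAS43 (log2 −0.61, SE 0.66), and it overlapped on the scale of all 8 libraries. The shares of all genes lying below and above in this way were 7.46% and 3.49%.

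In L1, again 0 of 41 ciliary genes were called between FAS43 and N2 by edgeR or DESeq2, and 0 had an unadjusted p under 0.05. Of 16099 genes 0.0186% were called by edgeR and 0.0373% by DESeq2. The median log2 fold change was −0.30 for the ciliary genes and −0.0043 for all genes, and 34 of 41 were below 0, against 50.3% of all genes. Values ran from −0.98 to 0.53 with SE of 0.56 to 0.76, and every adjusted p was 0.9996. In 11 genes both FAS43 libraries lay below both N2 libraries (osm-5, osm-6, dyf-13, ift-74, ift-81, ifta-2, osm-3, bbs-1, bbs-5, bbs-8 and osm-12), 26.8% of the ciliary genes beside 14.2% of all genes. In none did they lie above, beside 12.9% of all genes. On the scale of all 8 libraries 7 further genes lay below (che-13, dyf-3, dyf-6, ift-20, bbs-2, bbs-9 and mks-1), which makes 18 of 41, or 43.9%, beside 11.6% of the 13335 genes in both tables. By role the medians were −0.52 for IFT-B, −0.18 for IFT-A, −0.22 for the motors, −0.46 for the BBSome, −0.48 for the transition zone and 0.23 for the others. The median of all 41 was −0.66 without FAS43 L1 replicate 1 (−0.02 over all genes), with 3 positive. Without FAS43 L1 replicate 2 it was −0.14 (−0.11 over all genes), with 15 positive. When 1 library was left out, 18 of the 41 values took both signs.

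osm-6, which encodes an IFT-B core subunit, had the value of largest size. It had 7.81 and 10.1 CPM in N2 L1 and 4.49 and 4.57 in FAS43 L1 (log2 −0.98, SE 0.65). Both FAS43 libraries were below both N2 libraries. mksr-2 had 5.24 and 12.5 against 5.99 and 3.08 CPM (log2 −0.96, SE 0.68), with overlap. ifta-2 had 6.91 and 14.7 against 6.66 and 4.75 CPM (log2 −0.92, SE 0.65), without overlap but with replicate 2 of N2 far above the other libraries.

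Among the remaining roles, osm-3 had 24.8 and 32.5 CPM in N2 L1 and 21.2 and 21.8 in FAS43 L1 (log2 −0.42, SE 0.56), with no overlap. dyf-2 had 44.0 and 31.2 against 36.01 and 28.7 CPM (log2 −0.22, SE 0.56), and bbs-9 had 11.5 and 5.93 against 6.18 and 4.10 CPM (log2 −0.77, SE 0.66), both with overlap. Both of the values above 0 that the naming rule selected belonged to genes with other roles. che-10 had 145.5 and 65.4 against 125.5 and 179.0 CPM (log2 0.53, SE 0.62), and daf-19 had 84.5 and 48.9 against 89.8 and 79.3 CPM (log2 0.34, SE 0.58). For both the groups overlapped, with N2 replicate 2 lowest.

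Other gene lists differed between FAS43 and N2 L1 in their medians. Of 21 maternal and 15 early zygotic genes chosen, 20 and 11 were listed in L1. A gene could be listed through the 2 FAS43 libraries alone, so the values hold for the listed genes only. Their medians were 1.41 for the maternal and 1.39 for the early zygotic genes. At an unadjusted p under 0.05 by edgeR were 11 of 20 and 3 of 11, with none called, where 543 of all 16099 genes had such a p. Their summed level was 292.1 to 574.0 CPM in N2 L1 and 762.4 to 1735 in FAS43 L1 for the 19 maternal genes in both tables, and 39.2 to 78.5 against 87.6 to 230.8 CPM for the 11 early zygotic genes. None of these genes was at 0 in a library, but genes in both tables had 10 counts in 2 or more libraries of each stage, which favours that outcome. The pan-neuronal genes had a median of 0.16 and the other ciliary genes −0.34. The part of these lists in the ciliary values was not tested.

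The values of the ciliary genes varied with their exon length in several comparisons. In N2 L1 the log2 ratio of replicate 1 over replicate 2 had a Spearman's rho with summed exon length of 0.713 over the 41 ciliary genes, and of 0.648 over 12734 genes. Replicate 1 was higher for 3 of the 14 shortest genes (463 to 1878 bases), 10 of the 13 in the middle and 13 of the 14 longest (2419 to 12568 bases). In FAS43 L1 the rho of the replicate ratio was −0.329 over the ciliary genes and −0.00502 over all genes. The fold change of FAS43 over N2 in L1 had a rho of 0.608 with length (0.38 over all genes), and of −0.273 without N2 L1 replicate 2 (−0.16 over all genes). Its median was −0.68 in the 14 shortest, −0.28 in the middle and −0.16 in the 14 longest genes. In embryos the rho of the fold change was −0.695 (−0.516 over all genes). It was −0.342 to −0.676 for the ciliary genes when 1 library was left out, and −0.621 to 0.099 for all genes.

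The change from embryos to L1 in FAS43 had a rho with length of 0.468 over the ciliary genes (0.23 over all genes), and of 0.337 to 0.525 when 1 library was left out. Its median was 0.30 in the 14 shortest, 0.44 in the middle and 0.96 in the 14 longest genes. In N2 the rho was −0.225 (0.000491 over all genes), with −0.497 without N2 L1 replicate 1 and 0.339 without N2 L1 replicate 2. All these points share their libraries, and the 14 shortest include 7 of the 14 IFT-B genes. The part of length in the genotype and stage values was not tested.

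**Figure D5:**
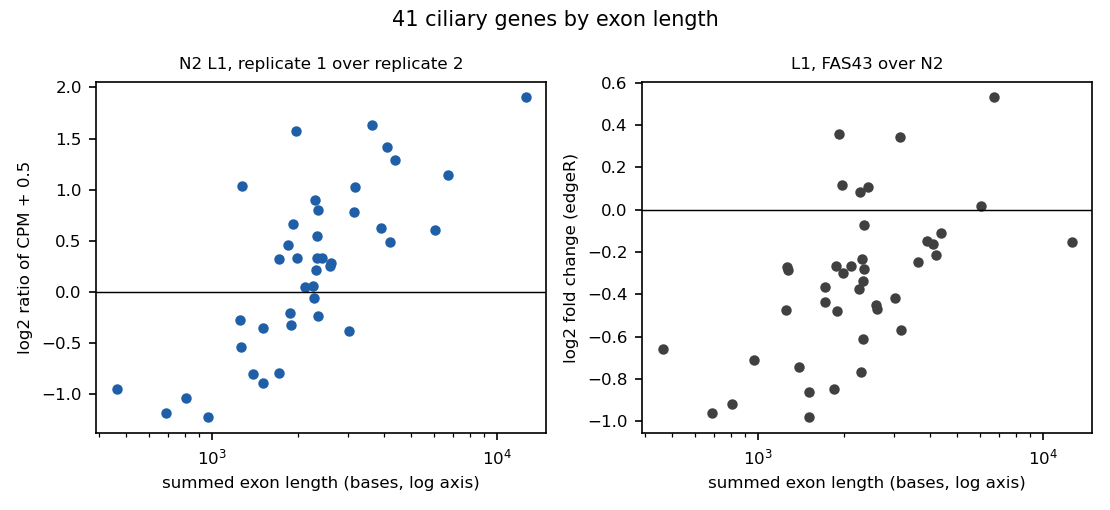
Summed exon length of the 41 ciliary genes (x axes, log scale) against the log2 ratio of N2 L1 replicate 1 over replicate 2 (left) and the log2 fold change of FAS43 over N2 in L1 (right). Points rise from left to right in both panels, with Spearman's rho of 0.713 and 0.608.

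Whether the genotype effect differed between stages was tested as an interaction in the fit of all 8 libraries. edgeR and DESeq2 called 0 of 41 ciliary genes and 0 of all 13335 genes, and 0 ciliary genes and 199 of all genes had an unadjusted p under 0.05 by edgeR. The difference (FAS43 over N2 in L1 minus the same in embryos) ran from −1.62 for ifta-2 (SE 1.11) to 1.04 for che-10 (SE 0.86), with a median of −0.19 against 0.02 over all genes. For mksr-2 it was −1.59 (SE 1.08) and for mksr-1 −1.15 (SE 1.18). The SE of these differences was 0.73 to 1.18 on the log2 scale. The median ranged from −0.88 to 0.30 when 1 library was left out. When 1 library was left out, 31 of the 41 differences took both signs.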

How the data were processed

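The authors deposited raw counts per gene, not normalized, in one table for each stage. The submitters' processing notes name TopHat2 2.0.13, HTSeq 0.6.1, edgeR 3.10.5 and the build WBcel235; how the counting treated strand is not given in the sources used here. Beside the raw counts the deposited tables give a normalized signal for each library, proportional to its raw counts, and per the file headers a log2 fold change, a p-value and an adjusted p-value. In the authors' deposited tables, 0 of 41 ciliary genes were marked as significant in either stage. Tests used the raw counts alone.

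The listed genes (13692 in embryos, 16249 in L1, 13335 in both) all reached 10 counts in 2 or more libraries. edgeR 4.0.16, run in R 4.3.3, tested the counts after filterByExpr and with TMM factors, by the quasi-likelihood F-test with Benjamini-Hochberg adjustment over all genes tested and a threshold of 0.05. FAS43 over N2 was fitted within each stage, with 2 residual degrees of freedom. L1 over embryo and the interaction came from 1 fit of all 8 libraries, with 4. Standard errors (SE) equal the size of the log2 fold change divided by the root of F. DESeq2 1.42.0 was an alternative, as were other scalings, filters, a replicate block and leaving out each library. The fits were also run on simulated counts. The share of changes that they recover is not given here, so an absence of calls does not exclude changes. Exon lengths and overlaps came from the Ensembl annotation of the same build. The members and the lists were chosen with earlier results of these data known. Values in every library are given for called genes, for the gene of smallest p in each role, for the 3 largest genotype values in each stage, for the gene of largest p between stages and for daf-19. Other members and list genes named with values were picked after those values were seen, except the gene of smallest p in each list. Promoter and protein sequences were not analysed here.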

Additional observations from a re-analysis of the deposited data

How the results depend on the processing

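The counts of called ciliary genes were 0 under every alternative run for FAS43 over N2 in embryos, in L1 and for the interaction. From embryos to L1 in N2, 4 were called, 2 with library totals as the only scaling (dyf-6 and dyf-7 were lost) and 0 to 5 when 1 library was left out. In FAS43, 2 were called, 1 with library totals (che-10 was lost), 5 with DESeq2 and 0 to 3 when 1 library was left out. The median log2 value of the ciliary genes, when 1 library was left out, was −0.76 to 0.61 for FAS43 over N2 in embryos, −0.66 to −0.14 in L1, 0.63 to 1.73 for L1 over embryo in N2, 0.11 to 1.22 in FAS43, and −0.88 to 0.30 for the interaction. The embryo median was −0.12 with the CPM filter, where that of all genes moved from −0.08 to 0.10. When 1 library was left out, 41 of 41 values of FAS43 over N2 took both signs in embryos, 18 in L1, 11 of L1 over embryo in N2, 17 in FAS43 and 31 of the interaction. Among the values of the naming rule these were, in embryos, che-2 (−1.28 to 0.47), che-11 (−1.25 to 0.97), che-3 (−1.23 to 0.65), bbs-2 (−1.15 to 0.62), mks-1 (−1.12 to 0.24), che-10 (−1.29 to 0.31), tub-1 (−1.40 to 0.66) and daf-19 (−0.83 to 0.43). For L1 over embryo they were nphp-1 in N2 (−0.42 to 0.55), daf-19 in N2 (−0.40 to 0.56) and bbs-2 in FAS43 (−0.44 to 0.95). Other values given above that did so include dyf-7 in embryos (−0.93 to 0.0054), mksr-1 in N2 (−0.58 to 0.86), klp-11 in N2 (−0.43 to 0.17), and ifta-2 (−0.73 to 0.99) and mksr-2 (−0.91 to 0.26) in FAS43. daf-19 in N2 was −0.039 with RLE factors, −0.031 with library totals and −0.039 with DESeq2. The cause of these changes was not tested. A group left with 1 library is assumed to vary like the others.

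Replicate numbers were given in the labels with nothing said of what they share. Over genes, the replicate differences of N2 and FAS43 did not go together (correlation −0.517 in embryos and −0.18 in L1). The share of ribosomal RNA did follow the number, being higher in replicate 2 of every group. With the replicate number as a replicate block, 0 ciliary genes were called between genotypes in embryos, 0 in L1 and 0 for the interaction, 3 from embryos to L1 in N2 (dyf-6 was lost, adjusted p = 0.0603 by edgeR) and 2 in FAS43. With a crossed replicate block, added after seeing the data, 0 were called in either stage. Depth of 25 to 4529 counts per gene and library and the spread of 2 libraries both limit the detection of small changes. Their shares were not measured. The planned search for the X-box motif in promoters was not run.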
